A study of Mus musculus with 7 samples.

Results

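Open chromatin of the embryonic jaw surface was set against open chromatin of the newborn lower incisor. The comparison used the ATAC-seq peak lists of 2 libraries of ectoderm of the first pharyngeal arches and 1 library of whole lower incisor, on the 19 autosomes. Peaks that shared at least 1 bp were merged into 111006 regions. A region was called ectoderm-only when both ectoderm libraries had a peak in it and the incisor had none, and incisor-only when the incisor had a peak in it and neither ectoderm library did. These 2 classes held 53685 regions, of the 128642 autosomal regions that all 7 libraries of the series give when merged. Ectoderm-only regions numbered 22455 (20.2% of the merged regions) and incisor-only regions 31230 (28.1%). A further 25045 regions (22.6%), called shared, had a peak in all 3 libraries. Because lists of unequal length were compared, every count was taken again from the 38000 autosomal peaks with the smallest p-values in each list, called equal length in what follows.

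Ectoderm came from mouse embryos at embryonic day 11.5. It was lifted from the mesenchyme of the dissected arches after Dispase II digestion, so mesenchyme cells that stayed attached would be part of the library. The incisor was a whole lower incisor at postnatal day 2, which holds enamel epithelium, dental pulp, odontoblasts and whatever vessels, nerves and bone came with the dissection. Age and tissue composition therefore differ together between the groups and cannot be told apart, and strain, genotype and sex are not given in the sources used here. The labels do not say whether the ectoderm replicates came from separate embryos, so their spread may be technical. With 1 incisor library no difference has a replicate check on that side, and no test over samples was possible. Peaks of the other 4 libraries, all at postnatal day 2, entered only as a readout. They are Sox2-positive cells sorted from the labial cervical loop of the lower incisor (2 libraries, isolated by FACS) and whole lower and upper first molar (1 library each). In these bulk samples fewer cells of a type and less accessibility per cell cannot be told apart.

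In ATAC-seq a transposase cuts and tags DNA that nucleosomes do not cover, so peaks mark promoters and enhancers that can be reached by proteins. The ectoderm of the first pharyngeal arch covers the future jaws. It is the source of signals such as Fgf8, Shh and Wnt ligands to the neural crest mesenchyme below, and it thickens into the dental lamina from which tooth epithelium forms. In the rodent incisor, epithelial stem cells in the cervical loop keep producing ameloblasts, which secrete enamel, while odontoblasts of neural crest origin on the pulp side lay down dentin, a collagen matrix much like that of bone.

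Promoter sequences of 6 genes, each lying under a group-only region in the full lists and at equal length, are given as examples of starts that the text returns to. They run from 250 bases before to 50 bases after a RefSeq start of assembly GRCm38.p6, and 16456 of 20661 autosomal protein-coding genes had such an entry. Capitals mark every match, on either strand, to the RUNX letters TGTGGT or the AP-2 letters GCCNNNGGC. No base of these 6 windows belonged to matches of both kinds. Under ectoderm-only regions lay the windows of Wnt3, a signal of oral ectoderm (chr11:103773925-103774224, plus strand), of Krt18, a keratin of simple epithelia (chr15:102027966-102028265, plus strand), and of Grhl3, a regulator of surface ectoderm (chr4:135573583-135573882, minus strand).
Wnt3: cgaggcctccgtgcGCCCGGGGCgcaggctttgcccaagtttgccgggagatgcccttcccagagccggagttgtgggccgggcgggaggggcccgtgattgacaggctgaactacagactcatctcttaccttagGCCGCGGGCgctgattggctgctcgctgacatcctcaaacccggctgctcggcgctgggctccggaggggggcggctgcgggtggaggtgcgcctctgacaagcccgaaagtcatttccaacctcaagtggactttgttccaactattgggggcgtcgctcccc
Krt18: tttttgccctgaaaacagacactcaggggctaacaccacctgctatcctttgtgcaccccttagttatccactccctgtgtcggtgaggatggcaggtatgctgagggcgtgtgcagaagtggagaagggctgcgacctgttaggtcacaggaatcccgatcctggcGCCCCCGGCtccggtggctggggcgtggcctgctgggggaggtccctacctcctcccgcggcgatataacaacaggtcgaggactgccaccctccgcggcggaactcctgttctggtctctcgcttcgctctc
Grhl3: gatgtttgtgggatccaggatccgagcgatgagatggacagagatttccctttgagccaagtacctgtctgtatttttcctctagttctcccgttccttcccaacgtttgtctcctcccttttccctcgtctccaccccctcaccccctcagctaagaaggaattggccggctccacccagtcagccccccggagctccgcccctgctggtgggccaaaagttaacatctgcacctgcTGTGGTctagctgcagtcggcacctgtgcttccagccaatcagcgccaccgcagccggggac
Under incisor-only regions lay the windows of Runx2, the regulator of osteoblast and early odontoblast fate (chr17:44814578-44814877, minus strand), of Ibsp, which encodes bone sialoprotein (chr5:104299037-104299336, plus strand), and of Ambn, which encodes the enamel protein ameloblastin (chr5:88455741-88456040, plus strand).
Runx2: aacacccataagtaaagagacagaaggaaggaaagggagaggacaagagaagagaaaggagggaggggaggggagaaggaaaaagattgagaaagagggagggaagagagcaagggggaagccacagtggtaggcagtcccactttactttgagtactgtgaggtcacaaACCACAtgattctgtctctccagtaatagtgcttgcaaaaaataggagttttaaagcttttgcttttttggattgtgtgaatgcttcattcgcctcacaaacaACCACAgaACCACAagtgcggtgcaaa
Ibsp: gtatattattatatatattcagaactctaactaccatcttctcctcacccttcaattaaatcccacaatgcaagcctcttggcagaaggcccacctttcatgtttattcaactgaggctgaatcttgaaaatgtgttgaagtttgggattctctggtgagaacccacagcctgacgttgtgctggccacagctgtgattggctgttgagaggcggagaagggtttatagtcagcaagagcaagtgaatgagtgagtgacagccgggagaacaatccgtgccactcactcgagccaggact
Ambn: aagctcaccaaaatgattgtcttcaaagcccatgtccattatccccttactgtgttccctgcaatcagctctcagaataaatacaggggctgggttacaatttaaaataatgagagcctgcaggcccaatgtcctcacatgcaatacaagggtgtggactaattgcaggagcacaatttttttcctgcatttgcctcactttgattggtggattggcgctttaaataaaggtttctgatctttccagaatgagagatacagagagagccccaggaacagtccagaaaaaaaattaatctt
The 3 ectoderm-only windows held between 58.3% and 65.7% G and C and from 12 to 24 CpG pairs. The 3 incisor-only windows held between 41.7% and 46.3% G and C and from 1 to 5 CpG pairs. Runx2 had 3 matches to the RUNX letters and Wnt3 had 2 to the AP-2 letters. Krt18 had 1 match to the AP-2 letters, Grhl3 had 1 to the RUNX letters, and Ibsp and Ambn had neither. These 6 do not stand for their classes, whose median windows differed less, at 57.7% and 53.3% G and C.

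The region over the Wnt3 start spanned 3631 bp with a peak signal of 4475 in ectoderm replicate 1 and 5732 in replicate 2. Peak signal is the value the authors' caller gave each peak, and it was used to rank peaks within a list and never to compare lists. The Krt18 start had signals of 1463 and 1013 in the ectoderm replicates, and the Grhl3 start 2825 and 2614. In the incisor the Runx2 start had a signal of 1328, the Ambn start 1627 and the Ibsp start 513. The Sox2-positive libraries and the molars all had a peak in the Runx2, Ambn and Ibsp regions. Of those 4 libraries only the upper molar had a peak in the Wnt3 region. The Krt18 region had a peak in all 4, and the Grhl3 region in Sox2-positive replicate 1 and both molars.

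List length differed among the 3 libraries. Ectoderm replicate 1 had 80850 autosomal peaks, replicate 2 had 49719 and the incisor had 62074. The other 4 libraries of the series had from 38326 to 68877. The 38000 peaks kept were 47.0%, 76.4% and 61.2% of the 3 lists. The last peak kept had a −log10 p of 4.79 in ectoderm replicate 1, 3.82 in replicate 2 and 4.01 in the incisor. No read counts come with the lists, so sequencing depth is unknown.

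At equal length the 3 lists merged into 61220 regions, of which 15146 (24.7%) were ectoderm-only, 18882 (30.8%) incisor-only and 17221 (28.1%) shared. Ectoderm-only regions were 47.3% of all regions that both ectoderm libraries had (Wilson 95% interval 46.8 to 47.7), and 46.8% at equal length. Incisor-only regions were 51.2% of all incisor regions (50.8 to 51.6), and 50.3% at equal length. Wilson intervals here cover the counting of regions only, and neighbouring regions are not independent of each other. At equal length the ectoderm replicates differed far less from each other than either did from the incisor. There 13.5% of the regions of replicate 1 had no peak in replicate 2, and 13.2% the other way round. Of the regions of replicate 1, 52.3% had no incisor peak, and of those of replicate 2, 51.7%. Of incisor regions, 52.4% had no peak in replicate 1 and 52.0% had none in replicate 2. With all peaks the gap depended on direction, since 39.8% of the regions of replicate 1 had no peak in replicate 2 and 1.72% the other way round. Of the regions of replicates 1 and 2, 62.5% and 48.0% then had no incisor peak.

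The count of ectoderm-only regions leaned on the shorter ectoderm list. With all peaks, 26863 regions had a peak in ectoderm replicate 1 alone and 741 in replicate 2 alone, and these counts were 4421 and 4108 at equal length. Dropping ectoderm replicate 2 raised the number to 50049, and dropping replicate 1 gave 23863. Calls made at equal length depend on the threshold too. Of the 15146 ectoderm-only regions found there, 24.2% (23.5 to 24.9) had an incisor peak in the full list. Of the 18882 incisor-only regions, 17.4% (16.9 to 17.9) had a peak of at least 1 ectoderm library in the full lists.

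**Figure D1:**
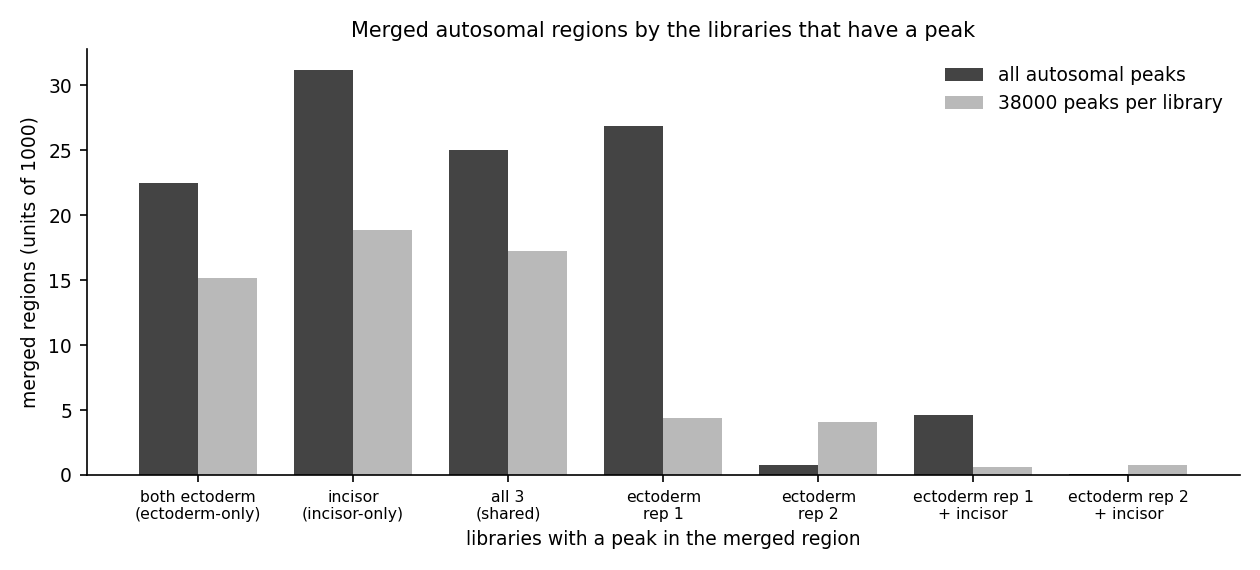
Merged autosomal regions (vertical axis, in units of 1000) by the libraries that have a peak in them (horizontal axis), for all autosomal peaks (dark bars) and for 38000 peaks per library (light bars). Regions of ectoderm replicate 1 alone fall from 26863 to 4421 between the settings, while the order of incisor-only over ectoderm-only regions is the same in both.

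Most group-only regions lay away from gene starts, and incisor-only regions more so. The centre was within 1 kb of a start of a protein-coding gene in 7.41% of ectoderm-only regions (7.08 to 7.76), in 2.40% of incisor-only regions (2.24 to 2.58) and in 46.3% of shared regions (45.7 to 46.9). At equal length these shares were 10.5%, 2.95% and 58.7%. The position of a region was not used to define it, and the ectoderm-only share was the higher one in every setting tried. The median distance to the nearest start was 30.8 kb for ectoderm-only, 33.6 kb for incisor-only and 2.03 kb for shared regions. More than 100 kb separated 23.7% of ectoderm-only and 21.9% of incisor-only regions from any start. Gene bodies held 52.5% of ectoderm-only and 55.9% of incisor-only regions.

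Counted by gene, the same order held. For the 4205 genes without a promoter entry strand is unknown, so either end of the gene counted as a start. A peak within 1 kb of a start was found in both ectoderm libraries and not in the incisor at 1205 of 20661 genes (5.83%), and in the incisor and neither ectoderm library at 302 (1.46%). At 12552 genes all 3 libraries had one. At equal length the counts were 1358 (6.57%), 334 (1.62%) and 11242. Group-only regions were also narrower than shared ones, but a merged region is the union of its peaks. The classes differ in how many libraries must have a peak, so width depends in part on the class rule. Median width was 585 bp for ectoderm-only, 439 bp for incisor-only and 1131 bp for shared regions, and peaks of ectoderm replicate 2 (median 646 bp) were wider than those of replicate 1 (490 bp) and of the incisor (520 bp). Across the autosomes the ectoderm-only part of all group-only regions ran from 37.7% on chromosome 11 to 45.1% on chromosome 14.

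**Figure D2:**
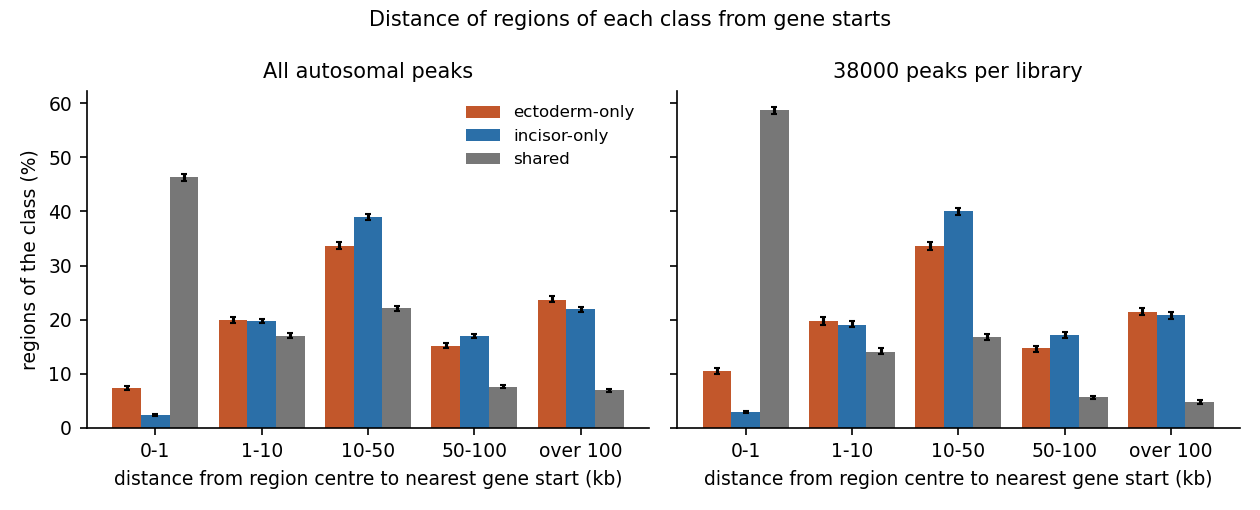
Share of the regions of each class (vertical axis, %) by distance from the region's centre to the nearest gene start (horizontal axis, kb), for all peaks (left) and 38000 peaks per library (right), with Wilson 95% intervals as bars. Shared regions peak within 1 kb at 46.3%, and both kinds of group-only region are most frequent from 10 to 50 kb.

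Peaks of the 4 libraries that took no part in the calls separated the 2 classes. Of the incisor-only regions, 66.2% (65.6 to 66.7) had a peak in at least 1 molar and 50% (49.4 to 50.5) in at least 1 Sox2-positive library. A molar peak lay in 30.1% of ectoderm-only regions (29.5 to 30.7) and a Sox2-positive one in 10.8% (10.4 to 11.2). The lower molar had a peak in 61.2% of incisor-only and 24.2% of ectoderm-only regions, and the upper molar in 55.0% and 25.9%. Sox2-positive replicate 1 had one in 33.3% and 9.92%, and replicate 2 in 39.5% and 2.92%. The incisor-only share was the larger one in each of the 4 libraries. All 4 are postnatal like the incisor, so age and tissue cannot be told apart in this readout.

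Among ectoderm-only regions 15087 (67.2%) had no peak in any of the other 4 libraries, and 314 (1.40%) had one in all 4. Among incisor-only regions 7454 (23.9%) had none and 6072 (19.4%) had one in all 4. Regions with a molar peak and no Sox2-positive peak made up 26.2% of incisor-only regions, and the reverse 9.96%. At equal length this order turned, to 11.4% and 27%. The Sox2-positive lists are the shortest of the series, and equal length removes fewer of their peaks. The cause of the turn was not tested. The molar share of incisor-only regions was then 55.2% and the Sox2-positive share 70.8%, against 24.7% and 23.9% for ectoderm-only regions.

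**Figure D3:**
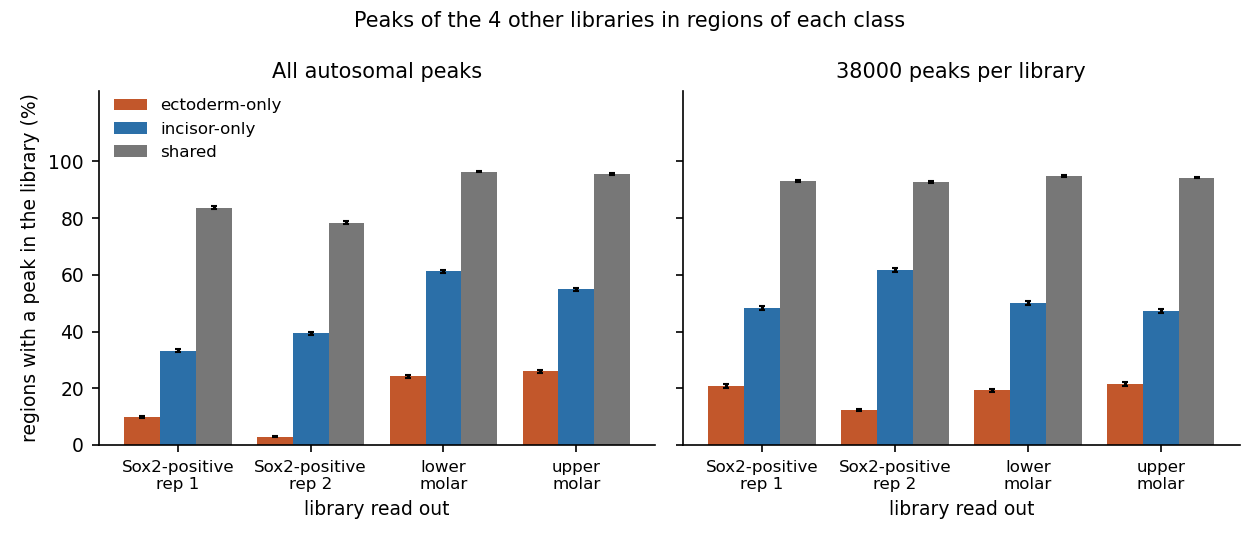
Share of ectoderm-only, incisor-only and shared regions (vertical axis, %) with a peak in each library that was not used to call them (horizontal axis), with Wilson 95% intervals, for all peaks (left) and 38000 peaks per library (right). In all 4 libraries the incisor-only bar stands above the ectoderm-only bar, for example at 61.2% and 24.2% in the lower molar.

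The ectoderm-only region with the highest mean rank by peak signal over the replicates lay at the start of Kremen2, a receptor for Dkk inhibitors of Wnt signalling (chr17:23743865-23747321, 0.236 kb from the start). Its signals were 7215 and 6576. Sox2-positive replicate 2 and both molars also had a peak there. Places 2 and 3 had no peak in any of the other 4 libraries. They lay between genes 169 kb from Zfp703 (chr8:26807213-26809318, signals 6542 and 6342) and 5.63 kb from Zbtb34 (chr2:33435095-33438808, signals 6919 and 5411). Claudins, the sealing proteins of epithelial tight junctions, held places 5 and 8. The region of Cldn23 (chr8:35825444-35827507) was 0.0830 kb from the gene's start, with signals of 5455 and 4936, and that of Cldn8 (chr16:88561696-88563995) was 0.337 kb away, with 5208 and 4628. The Wnt9b and Wnt3 region shown above held place 9.

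The incisor-only region with the highest signal, 6205, lay inside Tln2, which encodes a talin that links integrins to actin (chr9:67268940-67272130, 53.5 kb from the start). The second covered 7229 bp inside Col1a1, the gene of the main collagen chain of dentin and bone (chr11:94943548-94950776, signal 6099). The fourth lay inside Tcf7, a nuclear effector of Wnt signalling (chr11:52271687-52273720, signal 5896). Of the 10 incisor-only regions highest by signal, 9 had a peak in all of the other 4 libraries. The Col1a1 region was the exception, with a peak in Sox2-positive replicate 2 and the lower molar. None of the 10 lay within 1 kb of a gene start, whereas 3 of the 10 ectoderm-only regions highest by signal did.

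Genes were read in 12 lists of markers and pathway members. A region was assigned to the protein-coding gene that holds its centre, or else to the gene with the nearest end within 100 kb. Of the 47065 group-only regions with a gene, 41.3% were ectoderm-only and 58.7% incisor-only. Equal length gave 44.2% and 55.8% of 30080. The intervals of the facial ectoderm, general epithelium and dental epithelial progenitor lists lay above 41.3%, and those of dentin and bone matrix and of endothelium below it. With equal lists the intervals of the progenitor and endothelium lists took in the value of all genes, and that of blood and immune genes lay below it. The share was 70.6% (61.5 to 78.4) for facial ectoderm, 69.7% (60 to 77.9) for general epithelium, 57.9% (47.8 to 67.3) for dental epithelial progenitors and 9.49% (5.63 to 15.6) for dentin and bone matrix. With equal lists they were 65.3%, 73.5%, 56.1% and 13.7%. Regions of 1 gene share that gene's neighbourhood and are not independent, and 7 genes belong to 2 lists each.

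**Figure D4:**
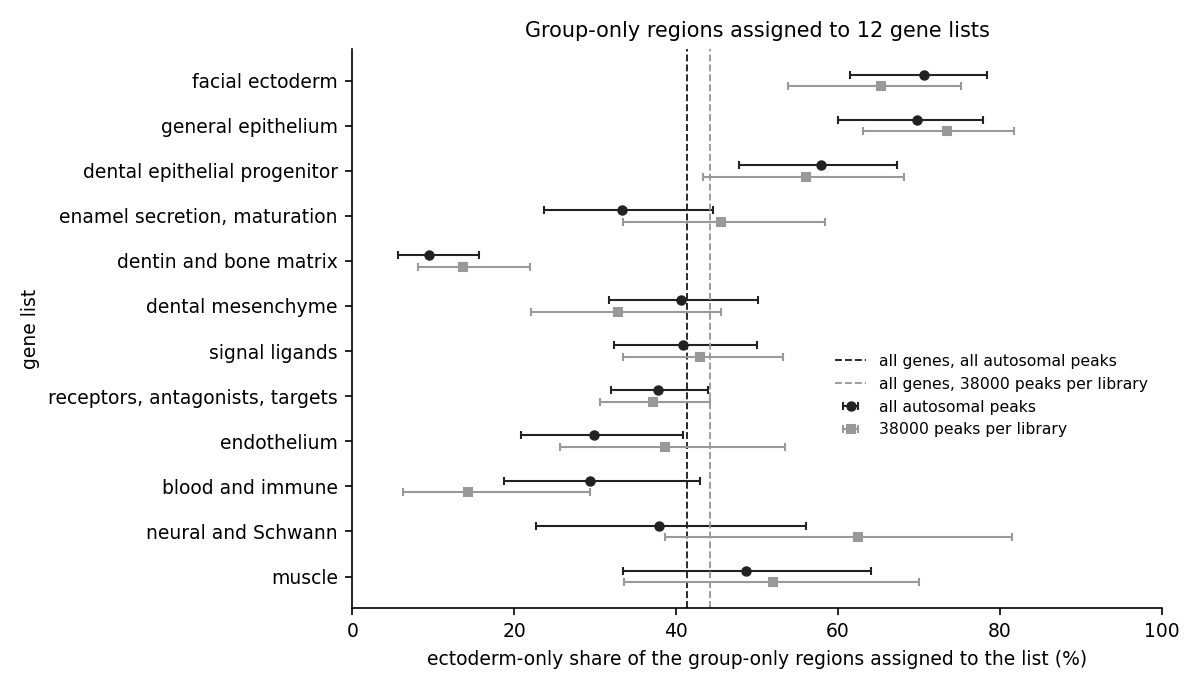
Ectoderm-only share of the group-only regions assigned to each of 12 gene lists (horizontal axis, %), with Wilson 95% intervals, for all peaks (black circles) and 38000 peaks per library (grey squares). Dashed lines give the same share over all genes, 41.3% and 44.2%, and facial ectoderm (70.6%) and general epithelium (69.7%) lie to the right of them while dentin and bone matrix lies at 9.49%.

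Facial ectoderm genes carried 77 ectoderm-only and 32 incisor-only regions, with more ectoderm-only regions at 13 of 20 genes and more incisor-only regions at 3. The median gene had 2.5 more ectoderm-only than incisor-only regions, against 0 over all genes. Tfap2a, which encodes an AP-2 factor of surface ectoderm and neural crest, had 10 ectoderm-only regions and no incisor-only one (7 and 0 at equal length). Its signals ran from 450 to 2366 in ectoderm replicate 1 and from 344 to 2027 in replicate 2, and 8 of the 10 had no peak in the other 4 libraries. The family member Tfap2b had 5 and 0, of which 1 had a molar peak. Tfap2c, also of this family, had 1 and 2 (2 and 1 at equal length). At Tfap2a 2 of the 10 had a molar and none a Sox2-positive peak.

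Pitx1, a homeobox gene of the mandibular ectoderm and its mesenchyme, had 8 ectoderm-only and 3 incisor-only regions. Irx1, an Iroquois homeobox gene, had 8 and 2, and 6 of the 8 had no peak in the other 4 libraries. At equal length Irx1 had 2 and 2. Wnt9b had 5 and 0, and Wnt3 had 3 and 0 beside the start region that falls inside the Wnt9b gene model. Fgf17, Isl1 and Sp8 had 3 and 0 each. At equal length Wnt9b had 6 and 0, Isl1 2 and 0, Fgf17 1 and 0, and Wnt3 and Sp8 had no group-only region assigned. Start peaks in both ectoderm libraries and not in the incisor were found at 7 of the 20 genes, against 5.83% of all genes. The 7 were Pitx1, Tfap2b, Tfap2c, Sp8, Wnt3, Foxi2 and Irx1. Pitx1, Tfap2c and Irx1 have no promoter entry, so their peak may lie at the other end of the gene. At 13 genes all 3 libraries had a start peak, and none had one in the incisor and neither ectoderm library. With equal lists the starts open in both ectoderm libraries and not in the incisor were those of 6 genes, against 6.57% of all genes. These 6 were Tfap2a, Tfap2b, Wnt9b, Wnt3, Foxi3 and Irx1. Dlx6, whose pair with Dlx5 patterns the lower jaw, went the other way with 2 ectoderm-only and 9 incisor-only regions. Dlx3 did so too, with 1 and 3 (1 and 4 at equal length).

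General epithelium genes carried 69 ectoderm-only and 30 incisor-only regions, with a median difference of 2 per gene. More ectoderm-only regions were found at 15 of 24 genes and more incisor-only regions at 5 (17 and 2 at equal length). Those 5 were Krt5, Krt14, Cdh3, Col17a1 and Itgb4. Grhl3 had 9 and 0 (8 and 0 at equal length), and Grhl2, its relative in the Grainyhead family, had 9 and 4. Cdh1, the gene of E-cadherin, had 7 and 2 (3 and 3 at equal length). Cdh3, another cadherin gene, had 2 and 5 (1 and 3 at equal length). Trp63, the regulator of stratified epithelium, had 7 and 3, and 5 of the 7 had a molar peak while none had a Sox2-positive one. Starts of Krt18, Krt19, Grhl3, Cldn4, Cldn7 and Col17a1 were open in both ectoderm libraries and not in the incisor. The simple keratin Krt19 has no promoter entry, so either end of the gene counted as its start. The region there had signals of 1658 and 1064 and no peak in the other 4 libraries. The basal keratin Krt14 had the reverse pattern around a start that was open in all 3 libraries. It had 4 incisor-only and no ectoderm-only regions, with incisor signals from 478 to 1124, and all 4 had a molar peak.

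As a check of the labels, 23 of 24 general epithelium genes had a start peak in each ectoderm library, and 17 in the incisor. With equal lists the numbers were 23, 22 and 12. The Sox2-positive replicates had 20 and 17 in both settings. Each molar had 21 with all peaks, and the lower and upper molar 19 and 16 at equal length. With all peaks the count thus did not order the libraries by epithelial content. Of 21 dental mesenchyme genes, 18 and 16 had a start peak in the ectoderm replicates and 18 in the incisor. These numbers were 10, 14 and 13 at equal length. All 3 libraries had a start peak at 15 of the 21 mesenchyme genes (10 at equal length). Over all genes this was so at 12552 of 20661 (11242 at equal length). Mesenchyme starts open in the peeled ectoderm were thus not particular to this list. The starts of Pdgfra and Lum had a peak in the incisor and neither ectoderm library. The Pdgfra start had a peak in all of the other 4 libraries, and the Lum start in 3. How far attached mesenchyme entered the ectoderm libraries was not tested.

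The dental epithelial progenitor list had 55 ectoderm-only and 40 incisor-only regions over 13 genes, and its median gene had a difference of 0. Sox2, a marker of incisor epithelial stem cells, had 6 and 1. The 1 incisor-only region near it, 35.5 kb from its start (chr3:34614099-34614871, incisor signal 2318), had a peak in all of the other 4 libraries. At 4 of its 6 ectoderm-only regions none of them had one. The strongest of those 4 (chr3:34747326-34748414) had signals of 3604 and 1706. Lgr5, a receptor that amplifies Wnt signals in epithelial stem cells, had 5 and 0, of which 4 were outside all postnatal lists. Sox21 had 3 and 0 with all peaks and none of either kind at equal length. Lrig1 had 6 and 11 and Fgfr2, the receptor for Fgf10, had 11 and 11. At Fgfr2, 8 of 11 incisor-only regions had a Sox2-positive peak, against 1 of 11 ectoderm-only regions.

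Enamel genes leaned to the incisor with all peaks, with 25 ectoderm-only and 50 incisor-only regions over 16 autosomal genes (33.3%, 23.7 to 44.6). At equal length the share was 45.6% (33.4 to 58.4), close to the 44.2% of all genes, so the lean depended on list length. Fam20a, a kinase-family gene needed for enamel, and Lamb3, a laminin chain of the epithelial basement membrane, had 7 incisor-only and 0 ectoderm-only regions each (5 and 0 at equal length). The incisor signals ran from 267 to 2428 at Fam20a and from 263 to 1336 at Lamb3. The bicarbonate transporter gene Slc4a4 had 4 and 10 (3 and 4 at equal length). Gene starts of the list fell in both classes. In both ectoderm libraries and not in the incisor 3 of 16 starts had a peak (7 at equal length). Over all genes this was so at 5.83% (6.57% at equal length). In the incisor and neither ectoderm library 2 of 16 had one (2 at equal length), against 1.46% of all genes (1.62% at equal length). Those 2 were Ambn, with a start peak in all of the other 4 libraries, and Mmp20, the protease of enamel secretion. The Mmp20 start had a signal of 381 and a peak in both molars and in no Sox2-positive library.

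Of the 16 autosomal genes of the list, 10 had more incisor-only and 4 more ectoderm-only regions (8 and 6 at equal length). Slc24a4, with 2 ectoderm-only and 5 incisor-only regions, and Wdr72, with 1 and 2, were among the 10. Klk4 and Itgb6, 2 genes that act in enamel maturation, were among the 4. Klk4 had 4 ectoderm-only regions and 1 incisor-only region, with signals of 1228 and 1021 at its start. Itgb6, which encodes an integrin chain of epithelia, had 7 and 0 (7 and 1 at equal length), with signals of 1863 and 1329 at its start. Enam, Amtn and Odam, which lie together on chromosome 5 near Ambn, had no start peak in any of the 3 libraries.

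Dentin and bone matrix genes gave the most one-sided list, with 13 ectoderm-only and 124 incisor-only regions. All 17 autosomal genes had more incisor-only than ectoderm-only regions, and this was so at equal length too. The median gene had a difference of -5.00. The 5 neighbouring genes of acidic matrix phosphoproteins on chromosome 5, Dspp, Dmp1, Ibsp, Mepe and Spp1, together had 26 incisor-only and 2 ectoderm-only regions. Dspp, the main non-collagen protein gene of dentin, had 4 and 0, with incisor signals from 229 to 1019, and 3 of the 4 had no peak in any of the other 4 libraries. Dmp1 had 6 and 0 and Ibsp 4 and 0, while Mepe and Spp1 had 6 and 1 each. Of the 26 regions, 15 had a molar peak and 11 a Sox2-positive peak.

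Among the regulators and the collagens, Runx2 had 20 incisor-only and 4 ectoderm-only regions (11 and 4 at equal length), with incisor signals from 208 to 1627. The strongest ectoderm-only region inside it (chr17:44669851-44671185) had signals of 4695 and 3813 and, among the other 4 libraries, peaks in the molars alone. Col1a1 had 12 and 0 (10 and 0 at equal length), with incisor signals from 260 to 6099, of which 8 had a molar and 6 a Sox2-positive peak. Col1a2 had 11 and 1, the phosphatase gene Alpl 11 and 2, and Smpd3, whose enzyme is needed for mineralisation, 10 and 1. Starts of Dspp, Dmp1, Ibsp, Bglap and Runx2 had a peak in the incisor and in neither ectoderm library. Of the other 4 libraries, all had a peak at the starts of Ibsp and Runx2, 3 at Bglap, 2 at Dmp1 and none at Dspp. Bglap has near-identical neighbours, so its reads may be shared with them. The starts of Ibsp, Bglap and Runx2 kept this pattern at equal length, and those of Dspp and Dmp1 then had no peak in any of the 3 libraries.

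**Figure D5:**
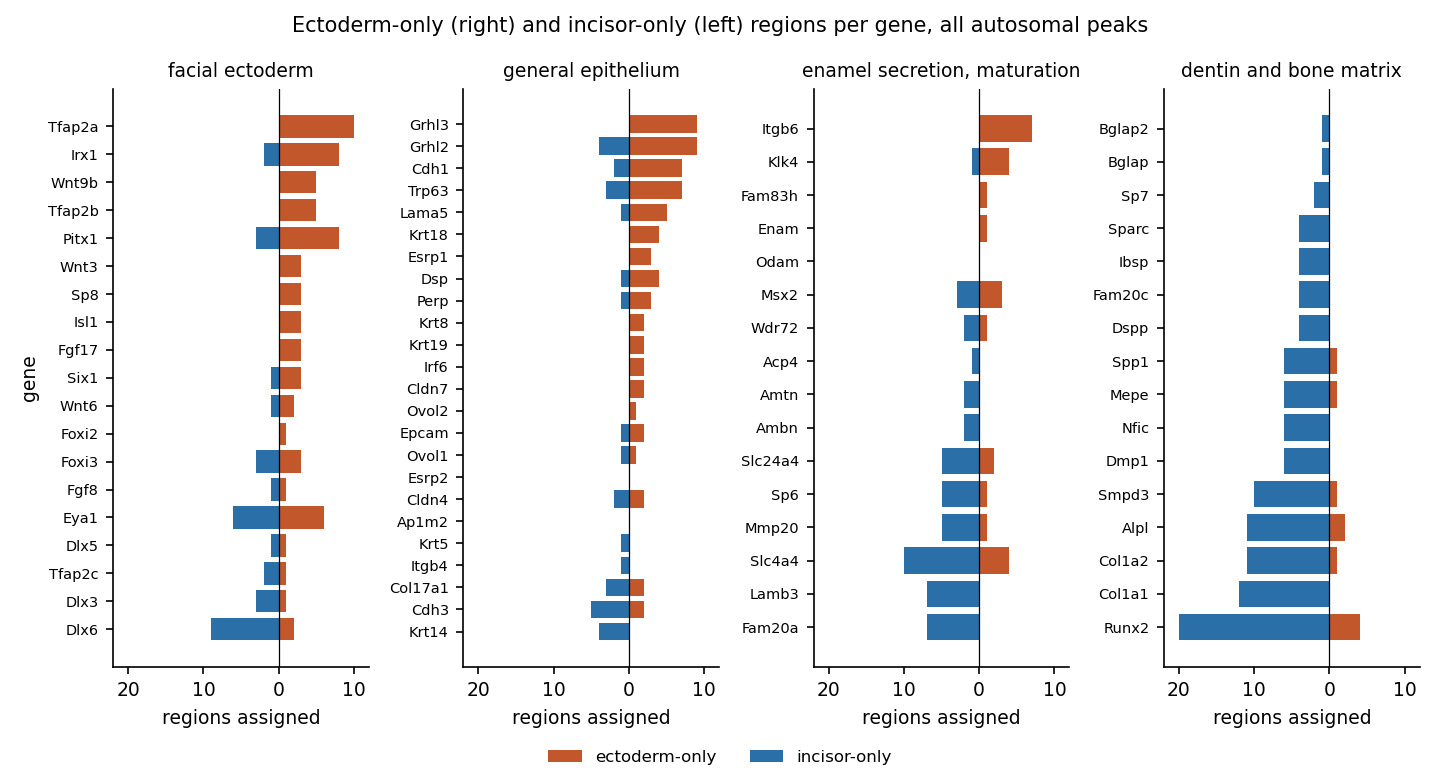
Number of ectoderm-only regions (right of 0) and incisor-only regions (left of 0) assigned to autosomal genes (vertical axis) of 4 lists, from all autosomal peaks, without 2 genes that are not reported here. Facial ectoderm and general epithelium genes extend mostly to the right, up to 10 regions at Tfap2a, and all dentin and bone matrix genes drawn extend further to the left, down to 20 regions at Runx2.

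Dental mesenchyme genes did not stand apart from all genes as a list, with 43 ectoderm-only and 63 incisor-only regions (40.6%, 31.7 to 50.1). Single members differed. Pdgfra, a growth factor receptor of neural crest mesenchyme, had 3 and 13, and 12 of the 13 had a molar peak. Pdgfrb, the receptor of perivascular cells, had 1 and 7. Barx1, a homeobox gene of the molar-forming part of the jaw, had 6 and 0 (3 and 0 at equal length), of which 3 had a molar peak and none a Sox2-positive one. Msx1 had 7 and 4 with all peaks and 1 and 0 at equal length.

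Signalling ligands had 47 ectoderm-only and 68 incisor-only regions (40.9%, 32.3 to 50), close to all genes. The ectodermal ligands Shh and Fgf20 had 3 and 0 each and a start open in both ectoderm libraries and not in the incisor. At the Shh start region (chr5:28466297-28467229) the signals were 980 and 459, and both molars had a peak there. The start region of Fgf20 (chr8:40285755-40287599), a target of ectodysplasin signalling, had signals of 2673 and 2024 and no peak in the other 4 libraries. The Wnt ligands of the list went both ways. Wnt4 had 8 and 2 and Wnt6 2 and 1, while Wnt7b had 4 and 9 and Wnt10a 1 and 4. Wnt5a and Wnt10b had 1 incisor-only region each. Among ligands of the transforming growth factor family, Inhba had 0 and 7, Tgfb2 1 and 9, Bmp7 3 and 12 and Bmp2 2 and 6. Bmp4 had 4 and 4, Tgfb1 1 and 1 and Tgfb3 0 and 2.

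Receptors, antagonists and targets had 93 ectoderm-only and 153 incisor-only regions (37.8%, 32.0 to 44.0), and all 30 genes had a start peak in all 3 libraries in both settings. Ptch1, the Hedgehog receptor that Hedgehog signalling itself induces, had 19 incisor-only and no ectoderm-only regions (11 and 0 at equal length). Its incisor signals ran from 213 to 2790. Of the 19, 16 had a molar peak, 12 a Sox2-positive peak and 9 a peak in all of the other 4 libraries. The Hedgehog effectors Gli2 and Gli3 had 12 and 18, and 13 and 13. Smad6, a feedback inhibitor of bone morphogenetic protein signalling, had 2 and 13, and Notch2 had 4 and 13. Hes1, a Notch target, had 9 and 4. A further 6 regions of Ptch1, its start among them, were shared.

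Markers of other cell types were counted in the same way. Endothelial genes had 23 ectoderm-only and 54 incisor-only regions (29.9%, 20.8 to 40.8), with a share of 38.6% at equal length. Cdh5, the cadherin of endothelium, had 1 and 8, and the starts of Cdh5, Tie1 and Eng had a peak in the incisor and neither ectoderm library. Sox17, Sox18 and Esam had the reverse. Each of these starts except that of Esam also had a peak in 1 or 2 of the other 4 libraries. At equal length the starts of Cdh5, Sox17, Sox18 and Esam had no peak in any of the 3 libraries. Blood and immune genes had 15 and 36 (29.4%, 18.7 to 43.0; 14.3% at equal length). Ptprc, the gene of CD45 on blood cells, had 1 and 8, and Runx1, which also acts in tooth epithelium and bone, had 4 and 18, the largest part of that list. Starts of 9 of the 15 blood genes, Ptprc, Csf1r and Adgre1 among them, had no peak in any of the 3 libraries. Neural and Schwann genes had 11 and 18 (37.9%, 22.7 to 56), which turned to 10 and 6 at equal length (62.5%, 38.6 to 81.5). Muscle genes had 18 and 19, and 13 and 12 at equal length. Endothelial start peaks numbered 8 of 14 in each of the 3 libraries, and blood start peaks 6, 6 and 3 of 15 in ectoderm replicates 1 and 2 and the incisor. At equal length they numbered 5, 5 and 4 of 14, and 3, 6 and 3 of 15. All 3 libraries had a start peak at 5 of the 14 endothelial and 3 of the 15 blood genes. Over all genes this was so at 12552 of 20661, and at 6045 no library of the 3 had one. The part of vessels, blood, nerve and muscle in the differences reported here was not tested.

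Without reference to any list, the most ectoderm-only regions at equal length, 16 each, were at Meis2, a homeobox gene of neural crest and cranial tissue, and Auts2. Meis2 had 2 incisor-only regions beside them (20 and 4 with all peaks). Of its 20 ectoderm-only regions, 17 had no peak in any of the other 4 libraries. Plekha7, which encodes a protein of epithelial adherens junctions, had 13 and 2, Ctnnd2 had 14 and 2, and Btbd11 had 12 and 1. Lrmda, Nav2, Tns3, Fto and Tenm3 completed the first 10. Several of these are long genes with many regions of both kinds. Auts2 had 22 incisor-only regions, and Nav2 had 14 ectoderm-only and 28 incisor-only ones.

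Nav2 also headed the genes with the most incisor-only regions at equal length, followed by Tenm4 (12 and 27) and Rad51b (9 and 26). Dnm3, a dynamin gene, had 4 and 24 (1 and 36 with all peaks), and of the 36 regions 25 had a molar and 21 a Sox2-positive peak. Tln2 had 3 and 19 and Tiam2 1 and 18, and Auts2, Runx1, Trio and Atxn1 were also among the 10. Genes with at least 3 ectoderm-only regions and no incisor-only region numbered 384 of 20661, and the reverse 734. With equal lists they numbered 269 and 522. Both kinds of region were assigned to 5440 genes. Ikzf2 had 9 and 0 at equal length, Grhl3 8 and 0 and Tfap2a 7 and 0. On the other side stood Ttc39b with 0 and 13, Ptch1 with 0 and 11, and Plod2, whose enzyme modifies collagen for cross-linking, with 0 and 10.

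Promoter windows of 300 bases could be read for sequence, whereas regions away from starts were not read. Of 20062 windows, 1080 (5.38%) lay under ectoderm peaks of both replicates and no incisor peak, and 322 (1.61%) under an incisor peak and no ectoderm peak, against 1169 (5.83%) and 344 (1.71%) at equal length. The median window held 57.7% G and C and 12 CpG pairs in the ectoderm-only class and 53.3% and 5 in the incisor-only class. Shared windows held 62.7% and 22, and windows with no peak in the 3 libraries 46.7% and 3.

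Of 14 short motifs searched on both strands, 4 are given here, chosen after their values were seen. The RUNX letters TGTGGT were found in 25.8% of incisor-only windows (21.3 to 30.8), 11.0% of ectoderm-only windows (9.29 to 13) and 14.8% of all windows. With equal lists the shares were 21.5% and 10.9%. Windows with no peak held them at 21.3%, and these windows have the fewest CpG pairs. The AP-1 letters TGANTCA were in 13.4% of incisor-only (10.1 to 17.5), 7.22% of ectoderm-only and 7.06% of all windows. Windows with no peak held them at 11.5%, within the incisor-only interval. With equal lists the shares were 11.9% of incisor-only, 7.61% of ectoderm-only and 11.3% of no-peak windows. The ETS letters GGAAGT were in 30.1% and 15.3%, against 25% of all windows, and in 23.8% and 17.0% at equal length. The AP-2 letters GCCNNNGGC were in 16.5% of incisor-only and 20.8% of ectoderm-only windows, a difference whose intervals met (12.8 to 20.9 and 18.5 to 23.4). Equal list length turned it, to 25.3% and 22.8%. These are letter matches, and base content differs between the classes.

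MicroRNA genes were read with a margin of 1 kb on each side of the hairpin. Of 919 autosomal hairpins in RefSeq, 44 (4.79%) were ectoderm-only and 29 (3.16%) incisor-only, and 36 (3.92%) and 25 (2.72%) at equal length. The hairpins described here were chosen after their values were seen. Both genes of miR-199a, a microRNA of mesenchyme, were incisor-only in both settings, although they lie on different chromosomes. Mir199a-1 lies inside Dnm2 on chromosome 9 (region chr9:21496041-21497726, incisor signal 3647) and Mir199a-2 inside Dnm3 on chromosome 1 (region chr1:162216685-162218167, incisor signal 3262). All of the other 4 libraries had a peak in both regions. They encode the same mature strands. Mir199b, on chromosome 2, has the same 3p seed and was shared with all peaks and incisor-only at equal length. Mir214, near Mir199a-2 on chromosome 1, was in neither group-only class in either setting. Seeds (bases 2 to 8) are in capitals.
miR-199a-5p: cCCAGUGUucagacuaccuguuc
miR-199a-3p: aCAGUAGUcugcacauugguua
Mir183 and Mir96, neighbours on chromosome 6 and microRNAs of sensory and epithelial cells, lay under 1 ectoderm-only region (chr6:30169026-30169713) with signals of 902 and 388 and no peak in the other 4 libraries. Their seeds differ.
miR-183-5p: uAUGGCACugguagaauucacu
miR-96-5p: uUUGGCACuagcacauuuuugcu
The epithelial microRNA genes Mir200c, Mir141, Mir203 and Mir205 had a peak in all 7 libraries in both settings, so they did not separate ectoderm from incisor. Mir200a, Mir200b and Mir429 on chromosome 4 share their 3p seed with Mir141 or Mir200c. They had no peak in any of the 3 compared libraries in either setting.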

How the data were processed

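The 7 deposited files are Genrich peak lists of Omni-ATAC libraries, 1 per library, read as mm10. Per the submitters' processing notes FastQC, Trimmomatic, Bowtie2, deepTools and Genrich were used, and their versions, settings and roles are not given in the sources used here. The authors deposited for each peak a signal (at least 200.0) and a −log10 p-value, neither normalized between libraries. Both were used only to rank peaks within a list. Depth is unknown.

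Groups were taken from the sample titles. Autosomal peaks of the 3 lists were merged where they shared 1 bp, with Python 3.11.15, numpy 2.4.6 and pandas 2.3.3. The code was tested on made-up peaks with known answers. Gene positions came from a RefSeq table of GRCm38.p6. Starts were RefSeq promoter starts and the upstream gene end, or both gene ends where no promoter entry gives strand, a definition settled after the tables were seen. Motifs were searched in promoter windows because no genome sequence was used here. Intervals are Wilson 95% intervals.

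Named regions are the 10 of each class highest by signal rank among those also called at equal length, and named genes the 10 with the most group-only regions at equal length, with all listed genes open to naming. The members and lists were chosen with earlier results of these data known. No p-value was computed, since the incisor has 1 library and regions are not replicates. Peaks on X, Y and unplaced contigs were left out of the counts. The values of 2 listed genes are not reported here, and they stay in the counts of their lists. Alternatives were list length by p-value or signal, a stricter p-value, overlap, summit windows, start distance, gene assignment, sex chromosomes and each ectoderm replicate left out.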

Additional observations from a re-analysis of the deposited data

Results flagged for a closer look

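Peaks outside the autosomes entered no comparison, and above the 3 that a count of 0 allows they gave regions of the same classes. Chromosome X held 427 ectoderm-only and 325 incisor-only regions, with ectoderm-only regions the more frequent there. Chromosome Y held 11 ectoderm-only regions. Unplaced contigs held 4 incisor-only and 22 shared regions.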

How the results depend on the processing

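No paired analysis was possible because the incisor has 1 library and no replicate number shared with ectoderm. Under every alternative run, the share of regions near a gene start was higher in ectoderm-only than in incisor-only regions, and the molar share higher in incisor-only ones. Adding X and Y moved none of these values beyond its interval, and the cause of the shifts below was not tested.

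With 38000 peaks per list by p-value there were 18882 incisor-only regions. The near-start shares were 10.5% (ectoderm-only) and 2.95% (incisor-only), the molar shares 24.7% and 55.2%, and the Sox2-positive share of incisor-only regions 70.8%. By signal the same values were 18709, 10.9%, 2.67%, 22.4%, 58.3% and 71.7%. With the 50% of each list of smallest p-value, counts were 10013 ectoderm-only, 14280 incisor-only and 14292 shared, and the shares 14.3%, 3.36%, 31.5%, 57.4% and 44.5%. Requiring 50% of a region to be covered gave 10.1%, 2.63%, 27.6%, 65.2% and 48.8%. Summit windows gave near-start shares of 10.7% and 5.88% and an incisor-only molar share of 63.4%. Near-start shares were 5.52% and 1.42% within 500 bp, and 12.3% and 6.51% within 2.5 kb. With either end of every gene, chosen after seeing the data, the incisor-only share was 3.4%.

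Leaving out 1 ectoderm replicate gave 23863 to 50049 ectoderm-only regions (the higher without replicate 2), near-start shares of 5.24% to 8.14% and 2.54% to 2.76%, molar shares of 19.7% to 29.4% and 66.3% to 68.4%, and a Sox2-positive share of 50% to 51.6%.

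Assigning regions within 25 kb gave an ectoderm-only share of 52.1% for signalling ligands and 43.1% for all genes. At equal length the enamel list had 45.6%, blood 14.3%, neural and Schwann 62.5% and all genes 44.2%. The motif alternative of windows at peak summits was not run. Depth limits what a missing peak shows: the region may be closed or below the threshold of its list.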

Other observations

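Regions crowded together in places. The windows named here were chosen after their values were seen, from 500 kb windows of the autosomes. The window around Foxe1, a forkhead gene of oral and thyroid epithelium (chromosome 4, 46000001 to 46500000), held 14 ectoderm-only and 2 incisor-only regions. The window with Wnt9b and Wnt3 (chromosome 11, 103500001 to 104000000) held 14 and 3, and the window with Cldn6, Cldn9 and Kremen2 (chromosome 17, 23500001 to 24000000) held 14 and 1. On the other side, the window with Timp2, an inhibitor of matrix proteases (chromosome 11, 118000001 to 118500000), held 5 and 32. The window with Snai1 and Cebpb (chromosome 2, 167500001 to 168000000) held 5 and 29, that of Ptch1 (chromosome 13, 63500001 to 64000000) held 2 and 23, and that of Dnm3 (chromosome 1, 162000001 to 162500000) held 4 and 24.

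The molar share of ectoderm-only regions was read list by list, and differences between lists were not tested. It was 53.8% (29.1 to 76.8) for dentin and bone matrix, from 13 regions. Of those assigned to receptors, antagonists and targets 45.2% (35.4 to 55.3) had a molar peak, and of those of general epithelium 42.0% (31.1 to 53.8). Endothelial genes had 13% (4.54 to 32.1) and blood genes 13.3% (3.74 to 37.9), with intervals that, for both, take in the 30.1% of all ectoderm-only regions. The molar share of incisor-only regions ran from 52.6% (31.7 to 72.7) for muscle to 77.8% (54.8 to 91.0) for neural and Schwann genes, against 66.2%.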
